A study of Arabidopsis thaliana with 6 samples.

Results

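*GLK1* (AT2G20570) and *GLK2* (AT5G44190) were examined in *Arabidopsis* seedlings that carry or lack the transcription factor LONG HYPOCOTYL5 (HY5). The members were taken by locus code, and both are represented on the array, as 2 of 29004 genes. One-color Agilent arrays were hybridized with Cy3-labeled cRNA from total RNA of 3-day-old seedlings of cultivar Col, raised in continuous white light. There were 3 arrays of wild type and 3 of *hy5*, the single insertion line SALK_096651. The seedlings of both genotypes were grown without sucrose on agar medium. Neither the labels nor the methods state whether replicates came from separate plant samples, so p-values measure only the spread between these arrays, which may be technical. Slide 1 carried the wild-type arrays and slide 2 those of *hy5*, each with its own scan, so slide, scan and genotype cannot be told apart.

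The GOLDEN2-LIKE (GLK) genes encode nuclear transcription factors of the GARP family and are named after GOLDEN2 of maize. In *Arabidopsis* the GLK genes act redundantly: plants that lack both are pale green, while plants that lack either are nearly normal. They promote transcription of nuclear genes for chlorophyll synthesis and for the chlorophyll-binding antenna proteins of the photosystems. HY5, a bZIP factor that acts downstream of the photoreceptors, promotes greening and other responses of seedlings to light. The comparison asks how much transcript of each GLK gene accumulates when *HY5* is disrupted.

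Each GLK gene had 1 probe on the array, printed as 1 spot. The TAIR10.1 gene table places *GLK1*, under the symbol *GPRI1*, on chromosome 2 with 3 annotated transcripts, and *GLK2* on chromosome 5 with 2. The signal of a gene therefore cannot be divided among its transcripts. Levels are given as the spot's intensity divided by the 75th percentile of its array, the scaling that the methods state. That percentile lay between 487 and 558 scanner units in wild type and between 981 and 1060 in *hy5*. Over 10 spike-in probes the median of the unscaled log2 differences, *hy5* minus wild type, was -0.59 (range -0.69 to 0.011). Differences below are therefore relative to the bulk of the signals on an array. Testing was limited to genes with a probe well above background throughout the 3 arrays of wild type, of *hy5* or of both, which left 21590 genes. The *HY5* transcript, measured to check the labels, had a mean scaled signal of 1.31 in wild type (SD 0.0718, n = 3). In *hy5* this was 0.0223 (SD 0.00569, n = 3), and the fitted log2 difference, -5.91, corresponds to a 60.1-fold lower geometric mean (limma adjusted p = 7.57e-06). The spot was only 1.79 to 2.38 times its local background in *hy5*. With normexp background correction the log2 difference was -4.20, so the size of the fold depends on the handling of background.

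Relative to the bulk of the signals on an array, the transcript of *GLK1* was at similar levels in both genotypes. Without scaling of the arrays, *GLK1* was higher in *hy5* by 1.00 on the log2 scale, against a median of 0.93 over all tested genes. Its scaled signal was 1.715, 1.486 and 1.615 on wild-type replicates 1, 2 and 3, and 1.51, 1.84 and 1.71 on the *hy5* replicates in the same order. The values of the genotypes overlapped, with the lowest of the 6 in wild type and the highest in *hy5*. Wild type had a mean of 1.605 ± 0.115 (SD, n = 3), and *hy5* had 1.69 ± 0.168 (SD, n = 3). The log2 difference, *hy5* minus wild type, was 0.070 (standard error 0.109, limma adjusted p = 0.611). Its 95% interval ran from -0.18 to 0.32, or from 0.880 to 1.25 as a ratio of *hy5* to wild type. The scanner software marked the spot as above background on every array, with a median 22.4 to 28.2 times its local background in wild type and 62.7 to 85.7 times in *hy5*.

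Relative to the 75th percentile, the transcript of *GLK2* was lower in *hy5*, a direction that turned without scaling of the arrays. Its scaled signal was 12.1, 11.1 and 10.73 on the wild-type replicates and 6.46, 7.91 and 7.80 on the *hy5* replicates. The groups did not overlap, and the lowest wild-type value stood 0.44 above the highest *hy5* value on the log2 scale. The share of all tested genes without overlap was not counted. In the lists below, among genes well above background on every array, the groups overlapped for 2 of 15 chlorophyll synthesis genes, 5 of 17 GARP relatives and 3 of 6 root markers. Wild type had a mean of 11.3 ± 0.703 (SD, n = 3), and *hy5* had 7.39 ± 0.809 (SD, n = 3). The log2 difference was -0.62 (standard error 0.111, limma adjusted p = 0.00288) with a 95% interval of -0.88 to -0.36, so that *hy5* held 0.651 of the wild-type signal. This is 1.54-fold lower and under the 2-fold limit of the methods. The exact permutation test over the 6 arrays gave p = 0.1, two-sided, the smallest that 3 against 3 arrays allow.

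Before scaling, the intensity of *GLK2* was 5895, 6204 and 5982 in wild type and 6571, 7767 and 8247 in *hy5*, so every *hy5* array was brighter. Unscaled, the log2 difference of *GLK2* was 0.31, against a median of 0.93 over all tested genes, and it was 0.97 with scaling to the spike-in probes, against a median of 1.58. Relative to that median *GLK2* was 0.62 lower in both cases. This value could not differ from the scaled one, since both settings shift all genes of an array alike. Settings that could change it gave -0.26 (normexp background correction), -0.44 (no background filter) and -0.71 (quantile normalization). *GLK1* had an unscaled intensity of 835, 828 and 901 in wild type and 1536, 1808 and 1810 in *hy5*. Its unscaled log2 difference was 1.00, close to the median of all genes.

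**Figure D1:**
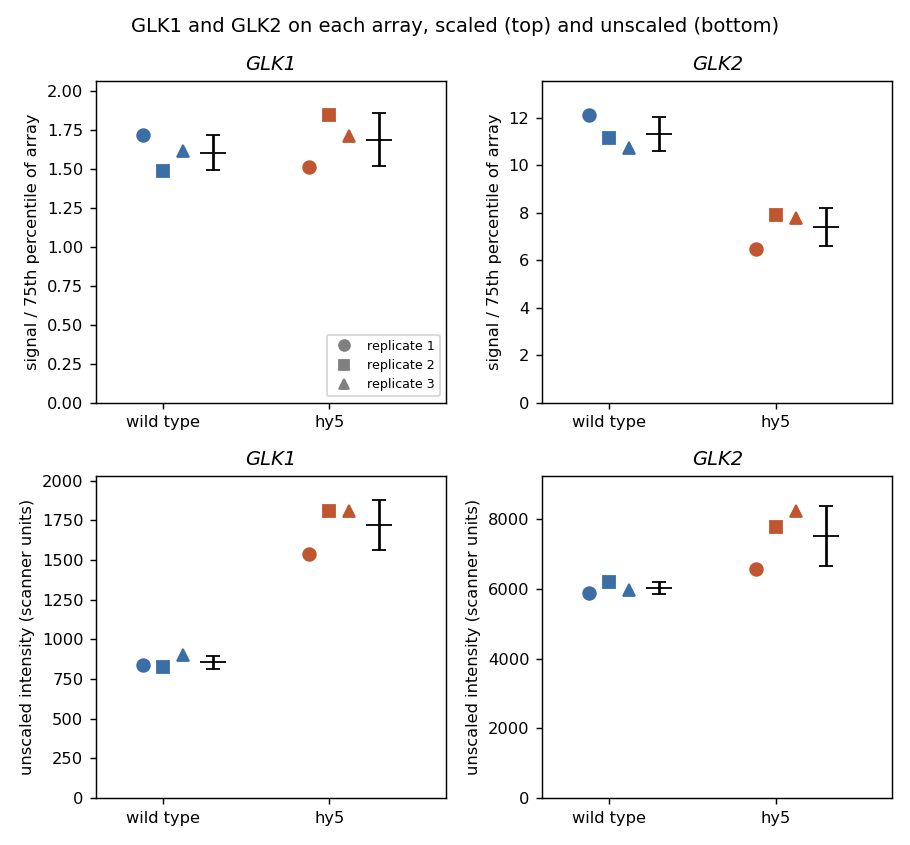
Signal of *GLK1* (left) and *GLK2* (right) on each of 3 wild-type and 3 *hy5* arrays, divided by the 75th percentile of the array (top) or as unscaled scanner intensity (bottom), with bars for mean ± SD. Scaled *GLK1* values overlap between genotypes and scaled *GLK2* values do not (10.73 to 12.1 against 6.46 to 7.91), while unscaled values of both genes are higher in *hy5*.

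The signals of both GLK genes were also set against each other within each array, a comparison in which the scaling cancels. The log2 signal of *GLK1* minus that of *GLK2* was -2.82, -2.91 and -2.73 on the wild-type arrays and -2.10, -2.10 and -2.19 on the *hy5* arrays. Since the signals come from different probes, only the change of this quantity is read and not its size. It was higher on every *hy5* array, by 0.69 on average (standard error 0.0584), a 1.61-fold shift of the ratio toward *GLK1* (exact permutation test, two-sided, p = 0.1, the smallest possible). Within a genotype the difference between the genes had an SD of 0.0715 on the log2 scale, against 0.126 for *GLK1* and 0.132 for *GLK2* alone. On *hy5* replicate 1 both genes were at their lowest in that genotype.

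Among all tested genes the change of *GLK2* was moderate. By limma at an adjusted p under 0.05, 26.6% of the 21590 tested genes were lower and 26.3% were higher in *hy5*, so a gene past this threshold was common. With the 2-fold limit added, 4.84% were lower and 6.55% were higher, and neither GLK gene was among them. The excess of higher genes depended on the filter. When all 6 arrays had to meet the background criterion, 945 of 19654 genes were higher by both limits and 1013 were lower. A log2 difference at least as low as that of *GLK2* was found for 13.3% of the tested genes. For *GLK1*, 10.6% of the tested genes had a smaller absolute difference. The spread of both genes was ordinary, as the median SD within a genotype over all tested genes was 0.14 on the log2 scale.

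**Figure D2:**
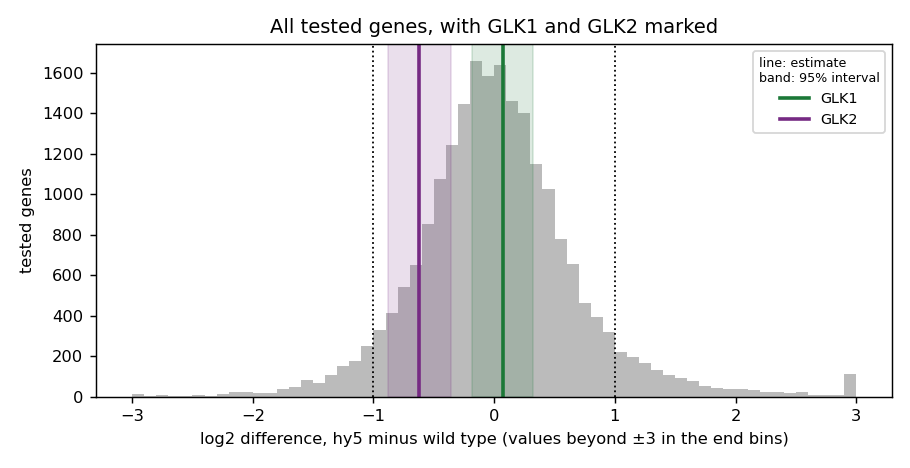
Histogram of the log2 difference (*hy5* minus wild type) of 21590 tested genes, with lines for *GLK1* and *GLK2*, bands for their 95% intervals and dotted lines at the 2-fold limits. *GLK1* at 0.070 lies at the center and *GLK2* at -0.62 on the lower flank, inside the 2-fold limits.

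The protein-coding genes on either side of each GLK gene were looked up after these values were known. Beside *GLK2*, *RLT2* (AT5G44180), which encodes a homeobox protein of chromatin remodeling complexes, was at -0.66 on the log2 scale (standard error 0.11, limma adjusted p = 0.00198). On its other side, *CBP20* (AT5G44200), a subunit of the nuclear cap-binding complex, had 0.25 (limma adjusted p = 0.036). Beside *GLK1*, neither AT2G20562 (0.077) nor *RPN1A* (AT2G20580), a proteasome subunit gene, with -0.086, was past the threshold (limma adjusted p of 0.728 and 0.491).

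Genes that the GLK proteins are known to promote were mostly lower in *hy5* with 75th percentile scaling, a direction that also turned without scaling. The first group was 15 genes of chlorophyll synthesis, all tested. By limma, 8 were past the adjusted threshold and lower and 2 were past it and higher, against 26.6% and 26.3% of all tested genes. The other 5 were not past it. With the 2-fold limit, 0 of the 15 were lower and 1 was higher, against 4.84% and 6.55% of all tested genes. The median log2 difference was -0.48, against -0.0044 over all tested genes. *HEMA1*, which encodes the enzyme at the entry of the pathway, had -0.88 (standard error 0.0819, limma adjusted p = 0.000167). *GUN4*, an activator of magnesium chelatase, had -0.82, and *CHLH*, the large subunit of that chelatase, had -0.68. *CRD1* of the cyclase step had -0.71 and *CAO*, which makes chlorophyll b, had -0.66. These 5 genes were named after their values were seen, and all had a limma adjusted p of at most 0.00157.

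The genes past the threshold and higher encode protochlorophyllide oxidoreductases, which carry out the light-dependent step of the pathway. *PORA*, which is known for its high expression in seedlings kept in the dark, rose by 1.505 on the log2 scale (standard error 0.15, limma adjusted p = 0.000227), from a geometric mean signal of 0.122 in wild type to 0.345 in *hy5*. *PORB* had 0.55 (limma adjusted p = 0.00211). *PORC*, of the same family, had the smallest difference of the list, 0.12, and was not past the threshold (limma adjusted p = 0.353). With normexp background correction 0 genes of the list, *PORA* included, were past both the adjusted threshold and the 2-fold limit. In that setting 529 of the 21590 tested genes were past both as higher and 724 as lower.

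The antenna genes were the second group, 18 genes of the *LHCA* and *LHCB* families. All 18 had lower scaled signals in *hy5*. Of these, 16 were past the adjusted threshold and 1 also passed the 2-fold limit, against 26.6% and 4.84% of all tested genes. The median log2 difference was -0.45. *LHCB2.3* fell by 1.03 on the log2 scale (standard error 0.115, limma adjusted p = 0.000375), from a geometric mean signal of 137 to 67.2. *LHCB2.1* had the smallest difference, -0.052 (limma adjusted p = 0.772). Members of these families are near-identical in sequence and can share probe signal, so single genes are uncertain. The calls of the antenna genes changed with the normalization. After quantile normalization 3 of 18 were past the threshold and the median was -0.033, whereas 10 of 15 chlorophyll genes were past it and lower and *GLK2* was at -0.71. Without scaling, 14 antenna genes and 9 chlorophyll genes were past the threshold as higher in *hy5*, and none as lower. That setting moves all genes alike, and 9614 of the 21590 tested genes were past both limits as higher. Relative to the median of all genes the antenna list was at -0.45 and the chlorophyll list at -0.48 with and without scaling. The share of all tested genes past the adjusted threshold alone was not counted without scaling, with quantile normalization or with normexp.

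**Figure D3:**
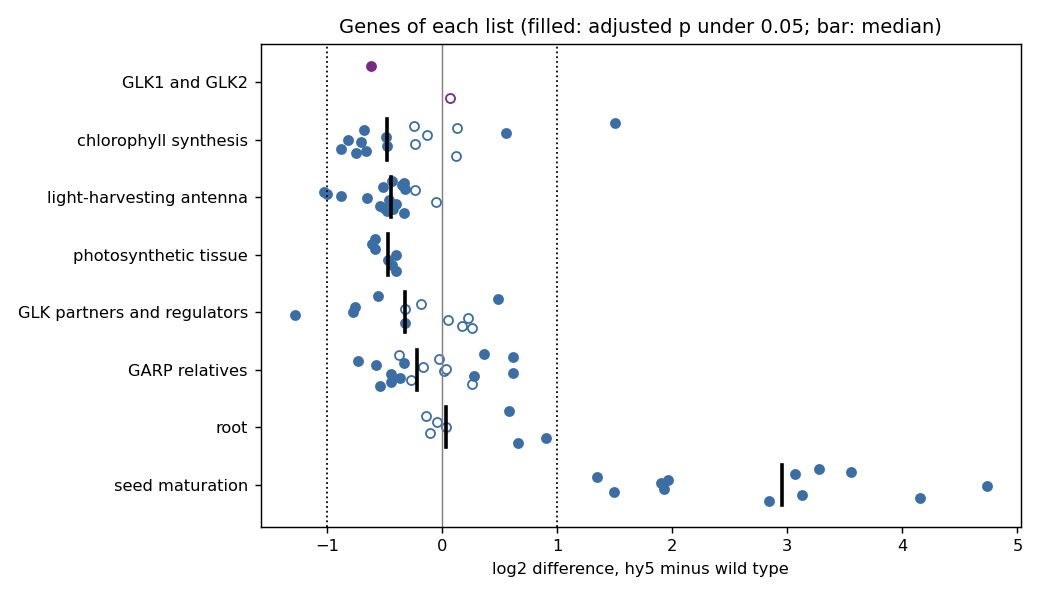
Log2 difference (*hy5* minus wild type, 75th percentile scaling) of each tested gene of the GLK pair and 7 gene lists, filled where the limma adjusted p is under 0.05, with black bars for list medians and dotted lines at the 2-fold limits. *HY5* itself, at -5.91, is left out of the points but counts in the median of its list. *GLK2* lies among the chlorophyll and antenna genes, which have medians of -0.48 and -0.45, and *GLK1* among genes that were not past the threshold.

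Factors known to bind GLK genes or proteins, or to act beside them, formed a list of 13 genes. Of these, 6 were past the adjusted threshold and lower and 1 was past it and higher, against 26.6% and 26.3% of all tested genes. The other 6 were not past the threshold, and the median of the list was -0.32. *HY5* itself, the disrupted gene, is among the 6 lower genes by design and counts in that median. Without scaling, where the median of all tested genes was 0.93, 9 of the 13 were past the threshold and higher and 2 lower. The genes past the 2-fold limit were *HY5* itself and *HYH*, its closest homolog, which fell by 1.28 on the log2 scale (standard error 0.134, limma adjusted p = 0.000279). The GATA factor genes *GNL* (also *CGA1*) and *GNC*, which promote greening alongside the GLK genes, had -0.76 and -0.56 (limma adjusted p of 0.00231 and 0.00837). *GUN1*, which encodes a plastid protein of chloroplast-to-nucleus signaling, had -0.32 (limma adjusted p = 0.0372). *NAC092* (*ORE1*), a senescence factor whose protein binds GLK proteins, was the gene that was higher, at 0.48 (limma adjusted p = 0.0225). *GNL*, *GNC*, *GUN1* and *NAC092* were named after their values were seen.

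The phytochrome-interacting factors, bHLH proteins that hold back greening in the dark, had no common direction. *PIF5* had -0.78 (limma adjusted p = 0.000908), whereas *PIF1*, *PIF3* and *PIF4* had 0.17, 0.26 and 0.045 and were not past the threshold (limma adjusted p of 0.153, 0.0543 and 0.74). The G-box factor genes *GBF1*, *GBF2* and *GBF3* were at -0.18, -0.33 and 0.23 and not past the threshold (limma adjusted p from 0.0867 to 0.112). The gene table gives *GLK1* the name of a factor that interacts with the proline-rich region of these bZIP proteins.

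The GARP domain that binds DNA in the GLK proteins is shared with other families, and 18 of these relatives were examined. By limma, 7 were past the adjusted threshold and lower and 4 were past it and higher, against 26.6% and 26.3% of all tested genes. The other 7 were not past it. None of the 18 passed the 2-fold limit, and their median was -0.22. *ARR18* entered the test only through the *hy5* arrays, and the median of the remaining 17 was -0.165. Without scaling, where the median of all tested genes was 0.93, 17 of the 18 were past the threshold and higher. *GLK2* thus lay inside the range of its relatives, which ran from -0.74 to 0.61. The lowest were *KAN1* (-0.74), a regulator of organ polarity, and *PHR1* (-0.58), the regulator of the phosphate starvation response, and the highest were *KAN4* (0.61) and the evening clock gene *LUX* (0.61). *APRR2*, a pseudo-response regulator that is related to the GLK genes, had -0.17 (limma adjusted p = 0.188), and *ARR2*, a response regulator of cytokinin signaling, had the smallest difference, 0.017. *KAN1*, *PHR1*, *KAN4*, *LUX* and *APRR2* were named after their values were seen.

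Markers of tissues that a seedling holds were examined as well. All 7 markers of photosynthetic tissue, which encode Rubisco subunits and other Calvin cycle proteins, were past the adjusted threshold and lower in *hy5*. At that threshold 26.6% of all tested genes were lower. The median of the 7 markers was -0.47, and each was under the 2-fold limit. *PRK* had the smallest difference, -0.40. Without scaling, where the median of all tested genes was 0.93, all 7 markers were higher. Their summed scaled signal lay between 2160 and 2560 in wild type, against 1610 to 1770 for *hy5*. After quantile normalization 1 of the 7 was past the threshold.

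Of 12 seed maturation markers, 9 were well above background on every array. All 9 of these were higher in *hy5* and past the 2-fold limit, against 945 of the 19654 genes that met the same criterion. Their median was 3.07. The other 3, *CRU2*, *SESA1* and *OLEO2*, entered the test only through the *hy5* arrays, on which they were brighter, and are left out of that count. The summed signal of all 12 genes, which includes these 3, was 0.959 to 1.84 in wild type against 8.89 to 16.0 in *hy5*. *EM1* had the largest rise of the list, 4.73, and *SESA3* the smallest, 1.35, with values that overlapped between the genotypes. With normexp background correction 7 of the 12 were past the 2-fold limit as higher, against 529 of 21590 tested genes, and 1 was past the adjusted threshold as lower. This count also includes the 3 genes that entered only through the *hy5* arrays. Of 7 root markers, 3 were past the adjusted threshold and higher and 0 lower, against 26.3% and 26.6% of all tested genes. The 7 had a median of 0.028 and a summed signal of 6.04 to 7.83 in wild type against 9.15 to 11.1 in *hy5*. The 3 past the threshold were *EXPA7*, *EXPA18* and *COBL9*, genes of root hair growth, at 0.66, 0.90 and 0.58, named after their values were seen. The other 4 were not past the threshold (limma adjusted p from 0.443 to 0.874). Without scaling, where the median of all tested genes was 0.93, all 7 root markers were past it and higher. With normexp, where that median was -0.20, 3 were past it and higher and 4 lower. *WOX5* of the root stem cell niche had the smallest difference, 0.028. It entered the test only through the *hy5* arrays, and the 6 root markers well above background on every array had a median of 0.27. The part of tissue makeup in the level of *GLK2* was not tested, and fewer green cells cannot be told apart from less RNA per green cell in RNA of seedlings.

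The genes whose signals followed the GLK genes most closely over the 6 arrays were found by Pearson r of log2 scaled signals, out of 19646 genes that were well above background on every array. For *GLK2* these were AT3G52260, AT1G27190, *AGF2* (AT3G55560) and *ORP4C* (AT5G57240), with r of 0.999 for each and log2 differences of -0.48, -0.45, -0.30 and -0.41. Such a pattern was common, as 1023 genes had an r above 0.95 with *GLK2*. For *GLK1* they were *HS1* (AT3G17210), *SLD1* (AT3G61580), AT3G61200 and *PGK* (AT1G79550), with r from 0.984 to 0.989 and log2 differences from 0.083 to 0.14, and 39 genes had an r above 0.95. *SLD1* encodes a desaturase of sphingolipid bases and *PGK* a phosphoglycerate kinase. All points share the same 6 arrays and their scaling, and r is given as a description.

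Other ways of processing were compared. Without scaling, and with scaling to the spike-in probes, *GLK1* was past the threshold as higher in *hy5* (limma adjusted p of 3.37e-05 and 5.64e-12), and *GLK2* was past it as higher (limma adjusted p of 0.0419 and 4.94e-05). The other 14 settings that kept every array left both GLK genes on the same side of the threshold, and over these the log2 difference of *GLK2* lay between -0.71 and -0.45 with an adjusted p of 0.000204 to 0.0273, and that of *GLK1* between 0.060 and 0.091 with an adjusted p of 0.397 to 0.712. In the authors' deposited table, *GLK2* had 9.81 ± 0.593 (SD, n = 3) for wild type against 6.396 ± 0.664 (SD, n = 3) for *hy5*. With each array left out in turn, *GLK2* lay between -0.67 and -0.53 and *GLK1* between 0.0048 and 0.15.

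**Figure D4:**
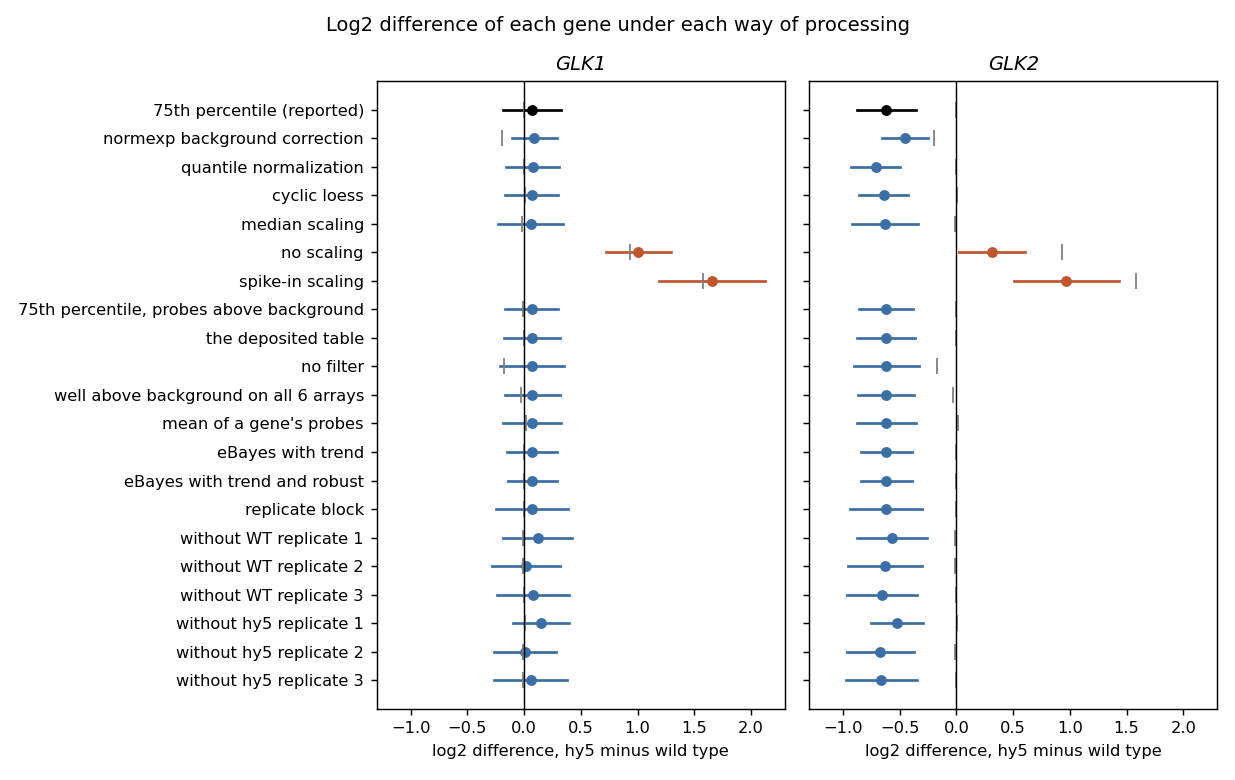
Log2 difference (*hy5* minus wild type) of *GLK1* and *GLK2* with 95% limma intervals under each way of processing that was fitted with limma. Grey ticks mark the median of all genes tested in that setting. The methods' t-test is not drawn. *GLK2* is below 0 and *GLK1* near 0 except without scaling and with spike-in scaling (orange), where *GLK2* is at 0.31 and 0.97 and *GLK1* at 1.00 and 1.66.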

How the data were processed

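The authors deposited the scanner output of 6 arrays, produced with Agilent Feature Extraction 10.7.3 (submitters' processing notes), in which a spot's intensity is linear and background-subtracted. A table that the authors deposited beside these files holds ratio values, in which each intensity was divided by the 75th percentile of the 38464 entries of its array. Flags for spots well above background come from the same files.

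Log2 intensities of the 43803 non-control spots were taken relative to the 75th percentile of their array. Spots of a probe were averaged, and outlier flags removed 30 probes. A gene was represented by its tested probe of highest mean signal. The model (lmFit and eBayes of limma 3.58.1, run in R 4.3.3) had genotype as its only term, and tests were two-sided, with Benjamini-Hochberg adjustment over 21590 genes. Precision is limited by the number of arrays. The procedure was tested on simulated arrays, in which 200 of 21590 genes were changed. At 1.5-fold 0 of the 200 were past the adjusted threshold, at 2.5-fold 173 and at 4-fold 190. Many more genes were past it in the data, so these counts cannot be carried over to *GLK2*. No spot was saturated.

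The members and gene lists were chosen with earlier results of these data known. Named genes were *HY5*, both GLK genes, called and least changed list members, and the 4 genes most like each GLK gene, beside those marked as named later. Of 29030 locus codes, 28595 were in the TAIR10.1 gene table, which is newer than the array's design, so no coordinates are given.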

Additional observations from a re-analysis of the deposited data

How the results depend on the processing

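List values in this part are medians relative to the median of all tested genes. Without scaling, *GLK2* changed sign to 0.31 and *GLK1* was at 1.00, with 9614 genes called higher and 117 lower. With spike-in scaling these were 0.97, 1.66, 18488 and 27, since these settings move the median of all genes to 0.93 and 1.58. Normexp, whose offset of 50 shrinks dim genes, called 529 genes higher and gave -0.15 for chlorophyll synthesis, -0.19 for antenna, -0.17 for GARP, -0.059 for partner, 1.31 for seed and -0.22 for photosynthetic genes. Normexp put *GLK2* at -0.45, beside a median of all genes of -0.20. Quantile normalization gave -0.32 for chlorophyll synthesis, -0.029 for antenna, -0.16 for GARP and -0.11 for photosynthetic genes, and cyclic loess -0.10 for GARP and 0.19 for root genes. The cause was not tested. Without the filter, which admits dim probes, 3664 genes were called lower, and the lists were at -0.31 (chlorophyll), -0.28 (antenna), -0.045 (GARP), -0.15 (partners), 0.20 (root) and -0.29 (photosynthetic). The filter on all 6 arrays gave -0.13 for GARP and 0.30 for root genes. With probes of a gene averaged, the antenna, GARP and seed lists were at -0.57, -0.32 and 2.43. The methods' t-test after Benjamini-Hochberg adjustment called 868 genes higher. With each array left out, GARP genes lay between -0.23 and -0.13 (the latter without wild-type replicate 2), partners between -0.37 and -0.23, root genes between 0.026 and 0.15 (the latter without wild-type replicate 2), photosynthetic genes between -0.56 and -0.43, *GLK1* between 0.0048 and 0.15, and *GLK2* between -0.67 and -0.53.

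Deviations of same-numbered arrays from their genotype means correlated at -0.025, -0.087 and 0.085, and replicate numbers were not treated as a pairing. With a replicate block, limma gave *GLK2* -0.62 (adjusted p = 0.012), *GLK1* 0.070 (adjusted p = 0.673), and 1420 genes higher and 1050 lower, and no call of a GLK gene changed. The change of *GLK1* minus that of *GLK2* lay between 0.55 and 0.79 under 5 alternatives, the replicate block among them. A slide block was not run, since 0 slides hold both genotypes.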
